A study of Mus musculus with 6 samples.

Results

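The genes described here are 10 targets of p53 that drive or tune mitochondrial apoptosis: Bbc3, Pmaip1, Bcl2l11, Bax, Apaf1, Aen, Perp, Phlda3, Triap1 and Pidd1. They were chosen by name, with earlier results of these data known, out of 21887 protein-coding genes on assembled chromosomes. The binding sites assigned to them were all p53 summits inside the gene or within 50 kb of either of its ends. p53 had been measured by ChIP-seq, which sequences the DNA bound to a protein, in basal progenitor cells of mouse epidermis, sorted as EpCAM-positive cells with high alpha-6 integrin from animals 8 weeks old. The groups were wild-type p53 (p53WT, here WT) and the p53 form named p533KR (here 3KR), with 3 libraries each, and both were digested in medium with 25 µM Nutlin-3a, which keeps MDM2 from degrading p53. From general knowledge, 3KR carries arginine in place of lysines of the DNA-binding domain that are otherwise acetylated; the labels give only its name, and neither zygosity nor whether animals were pooled.

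Each genotype had 1 list of summits, called combined by its file label, a summit being the base with the strongest signal of a peak, with 1668 summits for WT and 6753 for 3KR. No values of single libraries were in these lists, so no spread between animals and no test between genotypes can be given, and the sequencing depth is unknown. Summit names carried a run label that ended in 1 for WT and contained Doxo for 3KR, which differs from the labels. The WT list may therefore rest on 1 library, and the 3KR cells may have had another treatment; neither can be read from the labels, and their part in any difference between the lists was not tested. The score of a summit is the authors' −log10 p or q value and was read only as a rank within its own list. Peak lists hold no expression, so the sorted cell type was not checked against markers.

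In the intrinsic pathway, BH3-only proteins such as PUMA, NOXA and BIM switch off the anti-apoptotic members of the BCL-2 family, and BAX then opens the outer mitochondrial membrane. Cytochrome c that leaves the mitochondrion assembles with APAF1 into the apoptosome, which activates caspases. p53 induces genes at several of these steps, and it binds DNA at paired decamers called half-sites, each built round a core of CATG or CTAG or CAAG or CTTG.

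WT summits lay in the windows of Bbc3, Perp and Phlda3, 3 of 10 genes. Of all protein-coding genes, 11.6% had a WT summit in the same 50 kb window. All 3 also had a WT summit inside or within 1 kb of an end, a distance at which 3.51% of all genes had one. In Bbc3 and Phlda3, 2 of 10, it lay inside the gene, as in 2.92% of all genes. In the 3KR list 8 of 10 genes had a summit within 50 kb, against 42.2% of all genes, and at 1 kb the count was 4 of 10 (Bcl2l11, Apaf1, Aen and Perp) against 17.3%. The 10 windows held 4 WT summits in all, where the mean over all protein-coding genes was 0.146 WT summits per window. They held 12 3KR summits, where the mean over all genes was 0.725 per window. Both lists reached Perp and Phlda3, which is 2 of 10 against 9.93% of all genes. Bbc3 had a summit in WT only (1.71% of all genes), 6 genes had one in 3KR only (32.2%), and Pidd1 had none (56.1%). Such counts over 10 genes chosen by name, with earlier results of these data known, are a description.

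**Figure D1:**
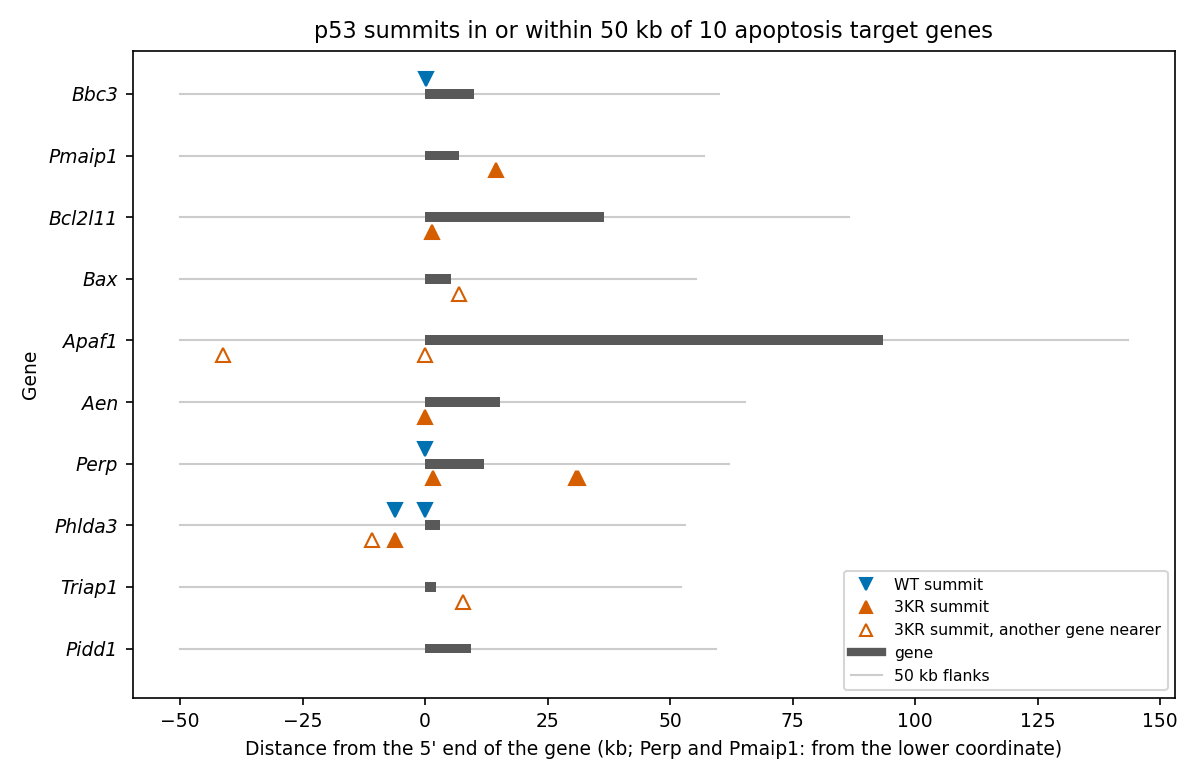
Summits in the windows of the 10 genes, with the distance from the 5' end of each gene in kb on the x axis (for Perp and Pmaip1, whose strand was not used, from the lower coordinate) and 1 row per gene. Bars are genes, thin lines the 50 kb flanks, blue triangles the 4 WT summits and orange triangles the 12 3KR summits, open where another gene is nearer (5 of 12).

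Bbc3 encodes PUMA, a BH3-only protein that binds all anti-apoptotic BCL-2 proteins. The gene lies on chromosome 7 from 16308398 to 16318334 (mm10, plus strand). Its single WT summit, at 16308697, was 299 bp inside the annotated 5' end and 886 bp upstream of the nearest transcript start in the promoter table. The score was 8.56, rank 908 of 1668. No 3KR summit fell in the window; the nearest was 69.5 kb outside the gene. No WT or 3KR summit lay in any of the 3 listed promoter windows of Bbc3, each running from 250 bases before to 50 after a start. The first of them does hold an adjacent pair of p53 half-sites, described with those of Bax and Aen further on.

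Pmaip1 encodes NOXA, a BH3-only protein that acts mainly on MCL1. Pmaip1 spans chromosome 18 from 66458604 to 66465558, with no other protein-coding gene within 50 kb. It had 1 3KR summit, at 66473141, which is 7583 bp outside the gene, with a score of 10.1 and rank 3328 of 6753. The nearest WT summit was 537 kb from the gene.

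Bcl2l11 encodes BIM, a BH3-only protein that also activates BAX directly. The gene spans chromosome 2 from 128126038 to 128162547 on the plus strand. Its 3KR summit at 128127464 was 1426 bp inside the gene and 111 bp upstream of the second transcript start in the table; an end of the neighbouring gene Acoxl was 1212 bp away. It scored 6.87, rank 5006 of 6753, and the nearest WT summit was 989 kb from the gene. Of the 3 BH3-only genes, Bbc3 had a summit within 50 kb in the WT list only, as 1.71% of all genes did. Pmaip1 and Bcl2l11 had one in the 3KR list only, as did 32.2% of all genes.

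Bax encodes the pore-forming effector of the mitochondrial membrane. It lies on chromosome 7 from 45461695 to 45466903 on the minus strand, among 8 other protein-coding genes in its window. The 3KR summit there, at 45459892, scored 10.1 (rank 3328 of 6753) and was 1803 bp beyond the 3' end of Bax. That position is 6 bp upstream of the start of Ftl1, the ferritin light chain gene, so Ftl1 and not Bax is the nearer gene. No summit of either list lay in the promoter window of Bax, and the nearest WT summit was 436 kb away.

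Apaf1, on chromosome 10 from 90989311 to 91082743 (minus strand), encodes the scaffold of the apoptosome. Its 3KR summit at 91082825 was 82 bp upstream of the Apaf1 start, with a score of 10.7 and rank 3028 of 6753. The neighbouring gene Ikbip has a listed start 296 bp away on the opposite strand. The summit was 214 bp upstream of that start and within the annotated extent of Ikbip, so position alone does not assign it to either gene. A second 3KR summit, at 91124063, scored 19.7 (rank 1176) but was 41320 bp from Apaf1 and 96 bp upstream of the start of Slc25a3, the mitochondrial phosphate carrier gene. The nearest WT summit was 2020 kb from Apaf1.

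Aen encodes an exonuclease that p53 induces and that takes part in DNA breakdown during apoptosis. It lies on chromosome 7 from 78895927 to 78911209 on the plus strand. Its 3KR summit at 78895894 was 33 bp upstream of the first listed start and 164 bp upstream of the second. It had the lowest score of the 12, at 3.54, and ranked 6640 of 6753. The nearest WT summit was 1120 kb from the gene.

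Among these genes, 4 had a summit in a listed promoter window, and the stretches from 220 bases before to 30 after the start are printed to show what sequence the summits sit on. They come from RefSeq (GRCm38.p6, the assembly of mm10), run 5′ to 3′ on the gene's strand, and carry in capitals the 11 bases centred on the summit.
Phlda3, WT summit, chr1:135765865-135766114, plus strand: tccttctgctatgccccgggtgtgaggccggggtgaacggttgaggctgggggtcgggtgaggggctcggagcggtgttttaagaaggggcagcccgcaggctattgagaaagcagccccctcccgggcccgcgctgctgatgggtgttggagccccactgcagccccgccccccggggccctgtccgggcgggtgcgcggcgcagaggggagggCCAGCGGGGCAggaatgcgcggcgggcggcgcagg
Bcl2l11, 3KR summit, chr2:128127355-128127604, plus strand: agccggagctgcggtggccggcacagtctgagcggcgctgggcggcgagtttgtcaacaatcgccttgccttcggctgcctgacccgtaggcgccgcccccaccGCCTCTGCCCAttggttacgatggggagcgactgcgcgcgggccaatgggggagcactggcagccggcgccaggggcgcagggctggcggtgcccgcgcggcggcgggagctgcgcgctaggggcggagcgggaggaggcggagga
Apaf1, 3KR summit, chr10:91082714-91082963, minus strand: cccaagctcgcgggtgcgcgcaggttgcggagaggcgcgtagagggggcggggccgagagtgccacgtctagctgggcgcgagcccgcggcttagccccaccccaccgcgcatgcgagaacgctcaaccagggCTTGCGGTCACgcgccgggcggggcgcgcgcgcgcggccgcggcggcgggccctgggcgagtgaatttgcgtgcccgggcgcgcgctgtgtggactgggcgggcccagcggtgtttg
Aen, 3KR summit, chr7:78895707-78895956, plus strand: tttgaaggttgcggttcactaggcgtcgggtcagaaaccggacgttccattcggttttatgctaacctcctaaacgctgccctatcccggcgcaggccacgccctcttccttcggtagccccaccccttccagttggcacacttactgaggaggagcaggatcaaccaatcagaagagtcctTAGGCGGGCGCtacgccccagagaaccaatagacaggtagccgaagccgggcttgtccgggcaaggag

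The promoter table listed 12 windows of 300 bases for 8 of the 10 genes, all but Perp and Pmaip1. WT summits lay in 1 of these windows, that of Phlda3, where 0.460% of all 32851 windows held one. The 3KR summits lay in 4 windows of 3 genes, Bcl2l11, Apaf1 and Aen (2 overlapping windows with 1 summit), where 5.21% of all windows held one. The 12 windows were rich in G and C, with a median of 71.3% (57.3 to 78.0) against 52.7% over all windows, and had a median of 28.5 CpG dinucleotides against 7. Windows with a 3KR summit anywhere in the genome had medians of 62.7% and 26.0, and those with a WT summit 62.0% and 24.0.

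The windows were searched on both strands for the p53 half-site consensus, whose core is CATG or CTAG or CAAG or CTTG and which reads alike on either strand. An exact half-site was present in 3 of the 12 windows, 1 of Bax and 2 overlapping ones of Aen, and in 8.36% of all windows. With 1 mismatch allowed it was present in 5 of 12 windows, close to the 39.6% of all windows. A pair of half-sites at most 1 base apart, with both cores intact and at most 3 mismatches in all, was present in Bbc3, Bax and Aen (4 of 12 windows, 2 of which overlap) and in 1.06% of all windows. With up to 13 bases between the half-sites, 4 of 12 windows again held a pair, against 6.72% of all windows. Both pair rules were chosen after the windows had been looked at, and the rule with 1 mismatch was not planned either. The 3 pairs are printed with 10 bases to either side and their cores in capitals.
Bbc3, chr7:16309476-16309515, plus strand: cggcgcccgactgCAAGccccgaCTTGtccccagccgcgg
Bax, chr7:45467069-45467109, minus strand: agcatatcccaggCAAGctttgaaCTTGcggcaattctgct
Aen, chr7:78895927-78895966, plus strand: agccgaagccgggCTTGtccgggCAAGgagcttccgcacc

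The pairs of Bbc3 and Aen are directly adjacent and carry 3 mismatches each, and that of Bax has 1 base between its half-sites and 2 mismatches. In Aen the pair, 10 to 29 bases after the first start, was 43 bp from the 3KR summit. In Bbc3 the pair, 97 to 78 bases before the first listed start, was 789 bp from the WT summit, and in Bax it was 7187 bp from the 3KR summit beside Ftl1. The windows of Phlda3, Apaf1 and Bcl2l11, which do hold summits, have no pair under this rule. A match of letters is not a measured site, and its absence here covers only these windows.

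**Figure D2:**
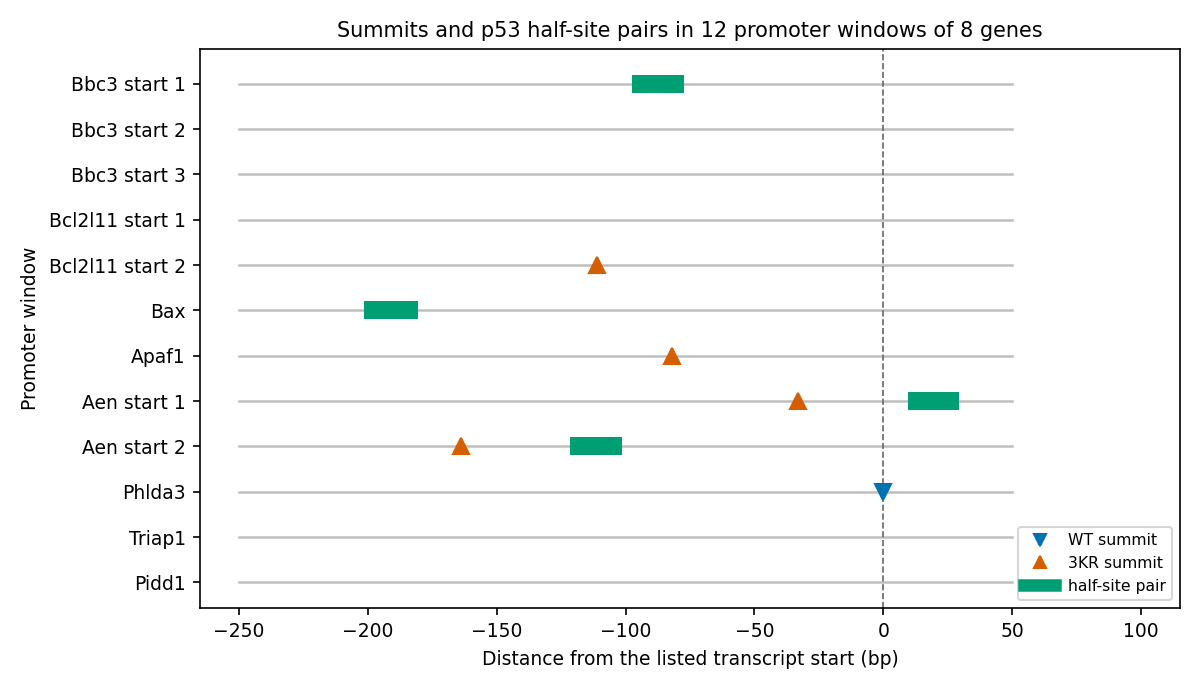
Promoter windows of the 8 genes with a listed start (12 windows), with the distance from the start in bp on the x axis; triangles are summits (blue WT, orange 3KR) and green bars are half-site pairs. Aen alone has both a summit and a pair in its windows, 43 bp apart.

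Perp encodes a membrane protein of desmosomes in stratified epithelia that is also an effector of p53-dependent apoptosis. Perp spans chromosome 10 from 18845071 to 18857073 and has no other protein-coding gene in its window. The WT summit at 18844981 was 90 bp outside the lower end of the gene, with a score of 9.70 and rank 781 of 1668. The nearest 3KR summit, at 18846649, was 1578 bp inside that end and 1668 bp from the WT summit, so the lists did not share a site under the 200 bp rule. It scored 9.39, rank 3635 of 6753. A further 2 3KR summits lay beyond the other end of the gene, at 18725 and 19305 bp, and ranked 3290 and 1083 with scores of 10.7 and 21.0. Perp thus had more 3KR summits than any other of the 10 genes. It was the nearest gene to all 3, which had to be so with no other gene in its window.

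Phlda3 encodes a small protein that competes with Akt for membrane lipids and so represses a survival kinase. Phlda3 spans chromosome 1 from 135766085 to 135769134 on the plus strand. One WT summit, at 135766085, fell on the annotated start itself, with a score of 6.36 and rank 1290 of 1668. The other WT summit, at 135759865, was 6220 bp upstream and had the highest score of the 4, at 14.2 (rank 469). A 3KR summit at 135759878 was 13 bp from it, with a score of 9.39 and rank 3635 of 6753. This upstream position was the only one shared by both lists in the 10 windows. A shared summit lay in the windows of 7.22% of all genes, so 1 of 10 is near the background. The remaining 3KR summit, at 135755363, scored 8.10 (rank 4303) and was nearer to Csrp1, 3134 bp from that gene. No 3KR summit was listed at the Phlda3 start; the nearest was the shared one, 6207 bp away.

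Triap1 encodes a small mitochondrial protein that p53 induces and that restrains apoptosis. Triap1 spans chromosome 5 from 115341231 to 115343553 on the plus strand, with 6 other protein-coding genes in the window. Its 3KR summit, at 115349074, had the highest score of the 12, at 24.8 (rank 762 of 6753). The summit was 5521 bp beyond Triap1 and 116 bp upstream of the start of Cox6a1, a subunit gene of cytochrome c oxidase, which is therefore the nearer gene. The nearest WT summit was 183 kb from Triap1.

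Pidd1 encodes the scaffold of the PIDDosome, the complex that activates caspase-2. It lies on chromosome 7 from 141438113 to 141447565 (minus strand) among 11 other protein-coding genes, the most of any of the 10. Neither list had a summit within 50 kb. The nearest 3KR summit was 92.3 kb away and the nearest WT summit 245 kb. With Bbc3 at 69.5 kb, these are the 3KR distances just outside the 50 kb limit, and the farthest summit inside it was that of Apaf1 at 41320 bp.

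Assignment by distance hides whose promoter a summit sits on. For all 4 WT summits the apoptosis gene was the nearest protein-coding gene. For 5 of the 12 3KR summits another gene was nearer by the distance to its annotated extent, namely Ftl1, Ikbip, Slc25a3, Csrp1 and Cox6a1. The summit given to Ikbip lies inside that gene, but the nearest gene end is that of Apaf1, 82 bp away. Counting only summits for which the apoptosis gene is the nearest left 3 of 10 genes in WT (5.04% of all genes by the same rule) and 5 of 10 in 3KR (19.5%). The 5 were Pmaip1, Bcl2l11, Aen, Perp and Phlda3, without Apaf1, whose place depends on that rule. Pmaip1 and Perp have no other protein-coding gene in the window, so their summits could have no other nearest gene.

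The summits were spread over the ranks of their lists, with a median near the middle. In WT the 4 ranked between 469 and 1290 of 1668, with a median score of 9.13 against 9.42 over the list. In 3KR the 12 ranked between 762 and 6640 of 6753, with a median score of 10.1, equal to that of the list. Scores in the 3KR list took 1112 distinct values, so ranks are shared: the scores of the Bax and Pmaip1 summits are equal and belong to 273 summits. The 3KR list was also cut to its highest scored summits, as many as WT has. Within 50 kb 3 of 10 genes then kept a 3KR summit, against 15.1% of all genes. These were Apaf1, Perp and Triap1. The summits kept for Apaf1 and Triap1 were 41320 and 5521 bp from these genes and nearer to Slc25a3 and Cox6a1. Perp was the nearest gene to its own, 19305 bp away. The 3KR summit 82 bp from Apaf1 fell outside the shortened list. Depth was not used here, and its part in the greater number of 3KR summits was not tested.

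**Figure D3:**
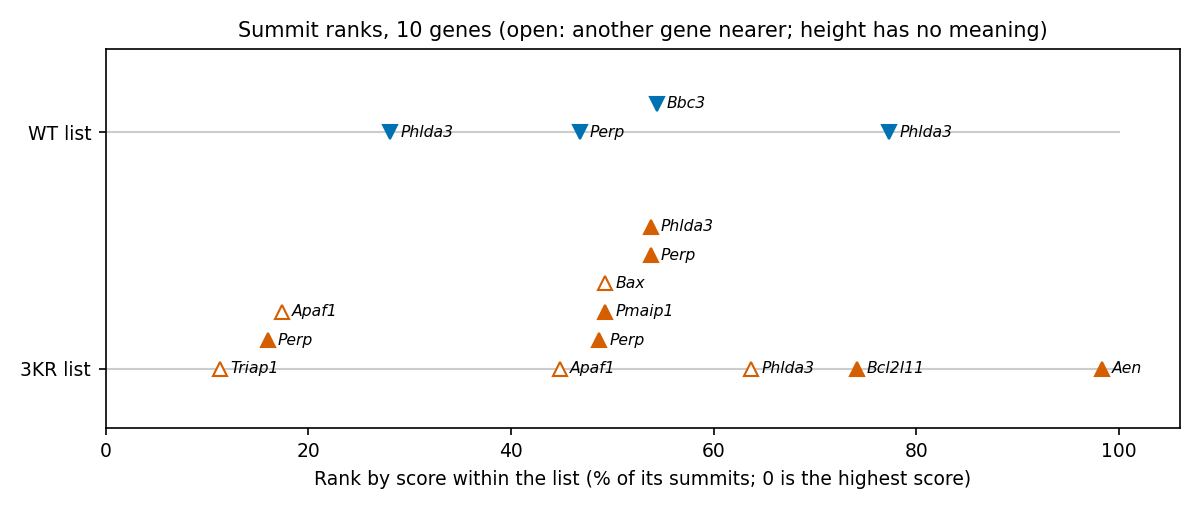
Rank of each summit within its list, as a percentage of the summits of that list on the x axis (0 is the highest score), with 1 band per list; open triangles mark summits with another gene nearer. The WT summits lie between 28.1% and 77.3% and the 3KR summits between 11.3% and 98.3%.

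Without any distance limit, the nearest 3KR summit was a median of 3.66 kb from the 10 genes and 75.4 kb from all protein-coding genes. For the WT list the medians were 340 and 529 kb. The WT median over the 10 genes mixes 3 genes with a summit inside or at most 90 bp away with 7 genes at 183 kb or more, and no gene lay between. The median length of the 10 genes was 9.70 kb, against 17.2 kb over all genes, with Apaf1 and Bcl2l11 above the latter, and their windows held a median of 3.00 other protein-coding genes, as did those of all genes.

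The rest of the apoptosis pathway was described by 34 genes sorted by role. In the WT list 6 of the 34 had a summit within 50 kb and 2 within 1 kb or inside, against 11.6% and 3.51% of all genes. In the 3KR list the counts were 23 and 8, against 42.2% and 17.3%. Counting only summits for which the pathway gene is the nearest left 12 of the 34 in 3KR (19.5% of all genes). In WT it left 3 (5.04%). The counts by role further on are by distance alone, whichever gene was nearest. At 100 kb all 10 targets had a 3KR summit, against 55.7% of all genes, and 3 a WT summit, against 18.4%. At 10 kb the 34 genes gave 11 in 3KR (23.4% of all genes) where the 10 targets gave 8, and 2 in WT (5.04%) where the 10 targets gave 3.

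**Figure D4:**
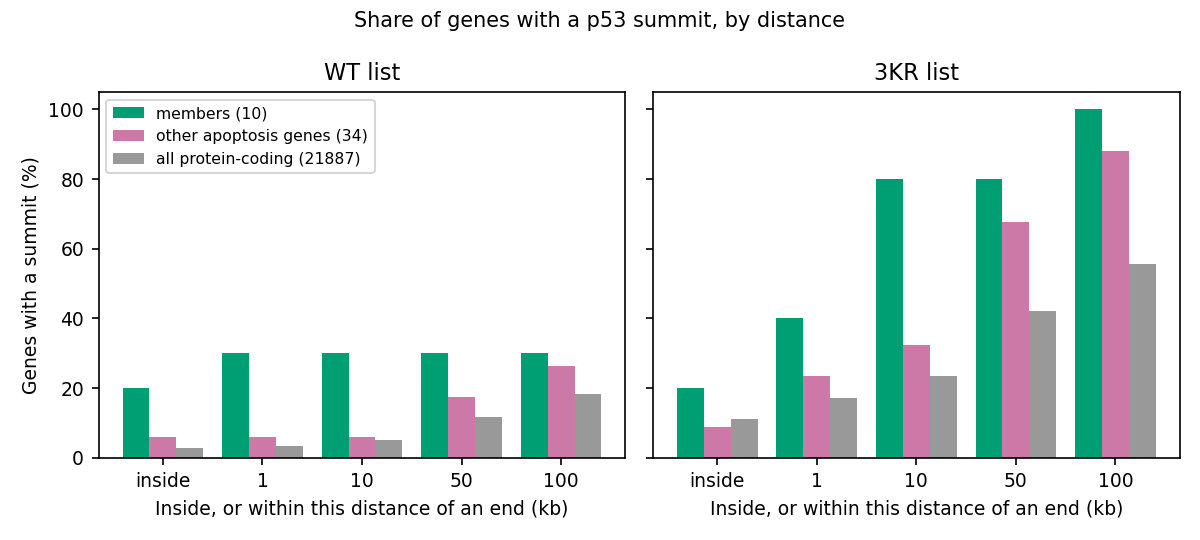
Percent of genes with a summit inside the gene or within 1, 10, 50 and 100 kb of an end, on the y axis, for the WT list (left) and the 3KR list (right). In WT the 10 targets stay at 3 of 10 from 1 to 100 kb, and in 3KR they go from 4 of 10 at 1 kb to 8 of 10 at 10 kb and 10 of 10 at 100 kb.

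Of the partners of Pidd1, Casp2 had a shared site at its 5' end. Its WT summit, on chromosome 6 at 42264945, was 43 bp inside the gene and ranked 1464 of 1668, and the 3KR summit, 26 bp from it, ranked 315 of 6753 with a score of 39.6. Cradd, the adaptor between the proteins of Pidd1 and Casp2, had a 3KR summit 28059 bp away and no WT summit within 50 kb. Pidd1 itself, the gene of this complex that is the established p53 target, was the one without a summit within 50 kb.

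Among BH3-only genes outside the 10, 5 of 7 had a 3KR summit within 50 kb (42.2% of all genes) and none a WT summit (11.6%). For some of the 5, each of these summits was nearer to another gene. Bnip3l had its 3KR summit 92 bp from an end, and Bad had one 276 bp outside, inside the neighbouring gene Gpr137. Of 5 anti-apoptotic genes, 3 had a 3KR summit and 2 a WT summit within 50 kb, beside 42.2% and 11.6% of all genes. Mcl1, whose protein is the main partner of NOXA, had 3KR summits 1046 and 6168 bp away, the second at rank 408 of 6753, and a WT summit 38869 bp away that is nearer to Adamtsl4. Bcl2 had a 3KR summit inside the gene, and Bcl2l2 had WT and 3KR summits from 33995 to 39165 bp away, all nearer to Efs or Il25.

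Of 7 genes of the apoptosome and the caspases, 3 had a 3KR summit and 1 a WT summit within 50 kb, close to the 42.2% and 11.6% of all genes. Cycs, which encodes cytochrome c, had a 3KR summit 12 bp outside its end, and Htra2, a mitochondrial protease gene, had one 59 bp outside, within Aup1. The WT summit of Htra2 was 45401 bp away, inside M1ap. Both effectors other than Bax were without a WT summit, and Bok had a 3KR summit 49728 bp away. In the death receptor arm 2 of 3 genes had a 3KR summit within 50 kb (42.2% of all genes), at least 34800 bp away, and none a WT summit (11.6%).

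Of 8 further p53 apoptosis genes, 7 had a 3KR summit within 50 kb (42.2% of all genes) and 2 a WT summit (11.6%). For some of the 7, each 3KR summit within 50 kb was nearer to another gene. Steap3, a metalloreductase gene, had a shared site inside the gene, where the summits were 79 bp apart and ranked 802 of 1668 in WT and 3635 of 6753 in 3KR. Ppp1r13b, which encodes the p53 cofactor ASPP1, had a shared site 20513 bp (WT) and 20560 bp (3KR) outside the gene, of rank 1616 and 714. Trp53inp1, whose protein enhances p53 activity, had 3KR summits 73 and 1957 bp outside the gene and no WT summit within 50 kb.

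By presence in each list at 1, 10 and 50 kb, the pattern of Bbc3 (WT at all 3 distances, 3KR at none) was found in none of the 34 genes and in 0.525% of all genes. The pattern of Phlda3 (WT at all 3, 3KR from 10 kb) was likewise found in none of the 34 and in 0.123% of all genes. Casp2 and Steap3 had the pattern of Perp, with both lists at all 3 distances (2.65% of all genes). Bcl2, Bad, Bnip3l, Cycs and Trp53inp1 had that of Apaf1, Aen and Bcl2l11 (3KR alone at all 3, 12.9%). Bnip3 and Casp9 had that of Bax, Triap1 and Pmaip1 (3KR alone from 10 kb, 4.52%). The summit of Casp9 was nearer to Dnajc16, as those of Bax and Triap1 were nearer to Ftl1 and Cox6a1. The pattern of Pidd1, with no summit at any of these distances, was found in 11 of the 34 genes and in 56.1% of all genes.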

How the data were processed

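p53 ChIP-seq libraries, 3 of WT and 3 of 3KR, were grouped by title. The submitters' processing notes name BWA, MACS2 and mm10; their versions, the control and the threshold were not given in the sources used here. Per genotype, the authors deposited 1 list of single-base summits, with a score read as −log10 of a p-value or q-value and ranked here within its list. Gene positions and promoter sequences came from RefSeq tables of GRCm38.p6, matched by symbol (10 of 10 genes, 8 with promoters); exons were not used here. Summits at most 200 bp apart were shared. Counts were set beside those over all protein-coding genes of chromosomes 1 to 19, X and Y, and no test was run, since the lists hold no replicates. The 10 genes, the 34 pathway genes and the rules were chosen with earlier results of these data known. Named are the 10 genes, genes nearer to their summits, and pathway genes with a WT summit within 50 kb, a 3KR summit within 1 kb, or the presence pattern of one of the 10; Bok, Cradd and the neighbours of pathway genes were named after their values were seen. Alternatives varied distance, score, list length, assignment, sharing and motif rule. The steps were tested on simulated lists (Python 3.11.15, pandas 2.3.3).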

Additional observations from a re-analysis of the deposited data

How the results depend on the processing

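Main counts were 3 of 10 genes with a WT summit within 50 kb (11.6% of all genes), 8 with a 3KR summit (42.2%) and 1 with a shared summit (7.22%). The 10 windows held 4 WT and 12 3KR summits, beside means of 0.146 and 0.725 per window over all genes. Within 1 kb the 3KR count went to 4 genes (17.3% of all genes) and 4 summits. The shared count went to 0, while WT kept 3 genes (3.51%). At 100 kb all 10 genes had a 3KR summit (55.7% of all genes), with 20 summits. In the upper 50% of each list by score, 5 genes had a 3KR summit and 0 a shared one, with 2 WT and 7 3KR summits. The share of all genes was not counted for this setting, so these counts have no background beside them. With the 3KR list cut to as many summits as WT has, 3 genes had a 3KR summit (15.1% of all genes), with 3 summits, and 0 a shared one. Of these genes only Perp, which has no other gene in its window, was the nearest gene to its summit. Counting only summits whose nearest gene is one of the 10 left 5 genes (19.5% of all genes by the same rule) and 7 summits in 3KR. Sharing within 50, 100 or 500 bp gave 1 gene each. For shared summits the share of all genes was counted only for the main setting. The other shared counts given here therefore have no background beside them. With 1 mismatch allowed, a rule that was not planned, half-sites were present in 4 genes rather than 2, and in 39.6% of all windows. The number of WT genes was 2 in the upper 50%, and 2 where only summits inside the gene were counted (2.92% of all genes). It was 3 under every other alternative run. Shortening the 3KR list cannot change this number. Nor could limits of 1 to 100 kb, as the nearest WT summit was at most 90 bp or at least 183 kb away. No paired analysis was possible because each genotype has 1 list and no test. Leaving out a library could not be run for the same reason, and depth is unknown.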

Other observations

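Over all genes, the promoter windows that hold a summit differed in how often they also hold a half-site pair (at most 1 base between half-sites, at most 3 mismatches). Of 151 windows with a WT summit 17 held a pair, or 11.3%. Of 1712 windows with a 3KR summit 29 held one, or 1.69%, and over all 32851 windows the share was 1.06%. An exact half-site was present in 15.9%, 7.01% and 8.36% of these windows in the same order. These are counts without a test, and neighbouring windows of a gene can overlap. The pair rule was chosen after the windows of the 10 genes had been looked at. The 3KR list is the longer one, and its windows were not counted at the length of the WT list. The part of list length, or of a possible other treatment, was not tested. Aen is the only one of the 10 apoptosis genes among the windows with both a summit and a pair.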
